A study of Mus musculus with 112 samples.

Results

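Fenofibrate and bezafibrate were set against each other in mouse liver. The members were the 9 liver arrays labelled fenofibrate and the 9 labelled bezafibrate, chosen by their labels, which are 18 of the 112 arrays of the series. Fenofibrate mice had received 150 mg/kg and bezafibrate mice 75 mg/kg, in both groups by mouth at 9 am for 8 days as a suspension in saline with Tween-80, and saline mice had received saline on the same schedule. All mice were male C57BL/6J, without any allele or cell line named, and their age is not given in the labels. The labels state 10 mice for each of 4 treatments, the fourth being tesaglitazar, and arrays of liver, prefrontal cortex and amygdala. Because the doses differ by design, dose and compound cannot be told apart in any comparison below. 1 pair of compounds was compared, at 1 dose each and 1 time.

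Fibrates are amphipathic acids that lower blood lipids. Fenofibrate is an ester that the body cleaves to fenofibric acid, which carries a chlorobenzoyl group, whereas bezafibrate is given as the free acid and carries a chlorobenzamidoethyl group instead. The labels class fenofibrate as an agonist of PPARα and bezafibrate as an agonist of all PPAR types. PPARα is a nuclear receptor of hepatocytes that binds DNA together with RXR, and in rodent liver its ligands are known to raise genes of fatty acid uptake, of peroxisomal and mitochondrial β-oxidation and of microsomal ω-oxidation, to enlarge the peroxisome compartment and to lower many genes for plasma proteins.

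The arrays of both groups were of like depth. Between 38.09% and 41.67% of probes were above background (detection p under 0.05) on the fenofibrate arrays and between 38.4% and 40.98% on the bezafibrate arrays (two-sided exact permutation p = 0.837, the smallest possible being 4.11e-05). Mean raw intensity was 245.1 to 379.1 and 252 to 331.3 (exact permutation p = 0.363). Arrays of the same group correlated at 0.9834 to 0.9933 over the tested probes, with 0 pairs of identical arrays. The number in each array's title was taken as the mouse, so the arrays of a group are separate animals. The fenofibrate arrays are numbered 16 to 20 and 37 to 40 and the bezafibrate arrays 12 to 15 and 31 to 35, so any order of handling along these numbers cannot be told apart from treatment within a run. 2 liver arrays, saline 4 and tesaglitazar 6, lie with each other's group. Neither is in the fibrate groups, but saline 4 touches values set against saline. Cyp2b9, for example, averaged 5.09 ± 2.24 (SD, n = 10) in saline livers with it and 4.39 ± 0.23 (SD, n = 9) without it. Saline levels below are those of the 9 other saline arrays, and differences from saline come from the 35 liver arrays left without this pair unless all 37 are named.

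The liver label was checked against 15 hepatocyte markers. 13 of them were tested, among them Alb, Ttr and Apoa1, and Tat alone was above background on 0 arrays. The summed level of the marker list was 155600 to 165400 on the fenofibrate arrays, 176600 to 193300 on the bezafibrate arrays and 185400 to 198300 on the saline arrays, in normalised linear units. The fenofibrate range lay below the bezafibrate range, and 5 of 13 tested markers were lower under fenofibrate (Cps1, Ass1, Ahsg, Serpina1a and Trf). Over all genes tested, 13.7% were lower. In bulk RNA, fewer cells of a type and less RNA per cell cannot be told apart. Of the Kupffer cell and macrophage markers, 0 of 10 tested were called, beside 26.6% of all genes, with summed levels of 1763 to 6622 and 1538 to 5277.

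Fenofibrate livers differed from bezafibrate livers at 26.6% of genes tested, in both directions alike in number, with the largest differences among the genes that were higher. Of 17635 probes tested, 4257 (24.1%) passed limma's moderated test at a Benjamini-Hochberg adjusted p under 0.05, 2090 higher (11.9%) and 2167 lower (12.3%) under fenofibrate. Taking the brightest probe of each gene, 2579 of 9681 genes were called, 1252 higher (12.9%) and 1327 lower (13.7%), against a median log2 difference over all genes of -0.02. These shares over all genes are to be set beside every list count below. The median size of a called difference was 0.373 on the log2 scale. A difference of at least 2-fold was found at 291 probes (1.65%), of which 92 were lower and the others higher (0.885% without background correction and 0.686% with the authors' processed values), and one of at least 4-fold at 38 higher and 8 lower. At 843 probes (4.78%) the 9 fenofibrate values did not overlap the 9 bezafibrate values. With arrays centred on their medians in place of quantile normalisation, 2878 probes were called, of which 2137 were higher and 741 lower. For 80.33% of tested probes the 95% interval stayed inside 0.5 log2 units on either side of 0.

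Set against saline, the fibrates called very different numbers of genes. Fenofibrate minus saline was called at 3443 genes (35.6%, of which 17.8% higher and 17.8% lower) and bezafibrate minus saline at 361 (3.73%, of which 1.91% higher and 1.82% lower). With all 37 arrays as labelled the counts were 2410 (24.9%, of which 12.8% higher and 12% lower) and 156 (1.61%, of which 0.806% higher and 0.806% lower). These comparisons share the saline arrays, and the test of the difference between the fibrates is the direct contrast.

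The 15 genes most above bezafibrate and the 15 most below it were named by rule. All 30 were also called in fenofibrate minus saline, in the same direction. In bezafibrate minus saline 4 of the 15 higher genes were called higher (Krt23, Acot3, Slc27a1 and Lamb3) and 3 of the 15 lower genes were called lower (Serpina12, Sdr9c7 and Hectd2os). With all 37 arrays as labelled, 29 and 0 of the 30 were called. The groups did not overlap in 13 of the 15 higher and 12 of the 15 lower genes, where the rule on size had used the same contrast. Sizes depend on the treatment of background: the difference was smaller by more than 1.5 times at 18 of the 30 genes without background correction and at 20 with the authors' processed log2 values, and kept its sign at all 30. Cyp2b9, described next, differed by 3.19 on the authors' values, and Ly6d by 2.20 without correction and 1.70 on the authors' values.

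**Figure D1:**
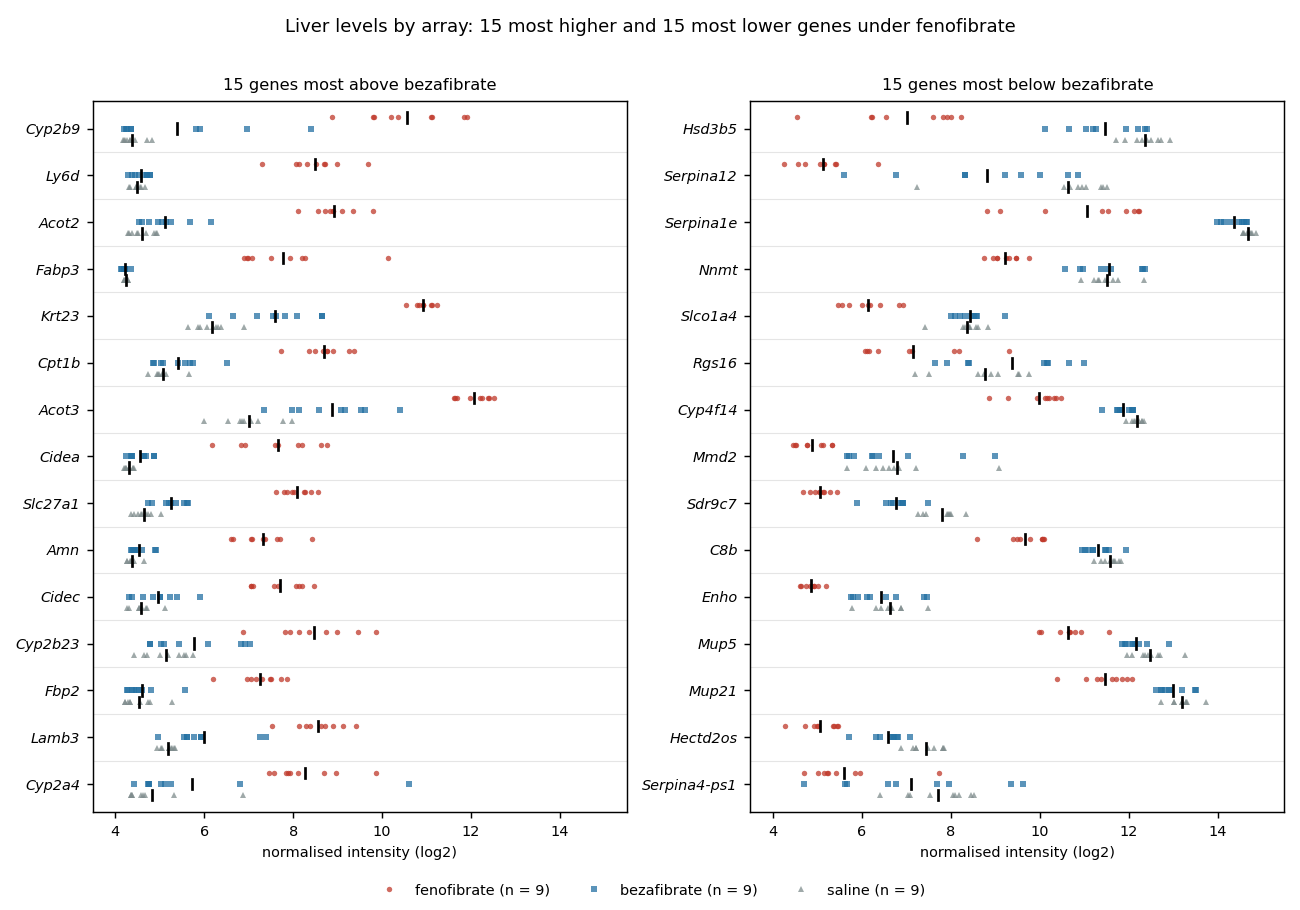
Normalised log2 intensity (x axis) in each liver array for the 15 genes most above (left) and the 15 most below (right) under fenofibrate relative to bezafibrate. Points are arrays, black bars are means, and each gene has fenofibrate on top, bezafibrate under it and saline at the bottom (9 arrays each, saline 4 left out). For Cyp2b9 the fenofibrate arrays sit between 8.87 and 11.92 and the bezafibrate arrays between 4.19 and 8.39.

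The largest difference was at Cyp2b9, a female-predominant cytochrome P450 of mouse liver. Its normalised log2 intensity was 8.87, 10.35 and 11.92 (lowest, median and highest) in fenofibrate livers, against 4.19, 4.35 and 8.39 in bezafibrate livers, and it averaged 4.39 in saline livers. It was above background on all 9 fenofibrate and 4 of 9 bezafibrate arrays. Every fenofibrate array lay above every bezafibrate array, although the highest bezafibrate array came within a single log2 unit of the lowest fenofibrate array. The log2 difference was 5.17 ± 0.52 (SE), or 35.9-fold (limma adjusted p = 1.13e-07). Ly6d, which encodes a small surface protein anchored by lipid, had means of 8.48 ± 0.66 and 4.59 ± 0.18 (SD, n = 9 each) in fenofibrate and bezafibrate livers, a difference of 3.89 ± 0.20 (adjusted p = 5.26e-12). It was above background on 5 of 9 bezafibrate arrays, and the groups were far apart. Krt23, a keratin of simple epithelia, was 10.1-fold higher under fenofibrate, with means of 10.93 ± 0.21 and 7.59 ± 0.85 (adjusted p = 2.23e-09).

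Acyl-CoA thioesterases, which cut fatty acyl-CoA into free fatty acid and coenzyme A, were among the genes furthest apart. Acot2 is a mitochondrial, Acot1 a cytosolic, and Acot3 and Acot4 are peroxisomal enzymes. Their genes lie in a cluster on chromosome 12, in the order Acot2, Acot1, Acot4 and Acot3. These 4 genes are shown together because all of them were called higher. The 4 were picked by name, and any further genes of the cluster are not reported here. Acot4 was named after its values were seen. The sequences are 300 bases of the plus strand around an annotated start site, 250 before and 50 after it, from RefSeq on GRCm38.p6: Acot2 at chr12:83987611-83987910, Acot1 at chr12:84009252-84009551, Acot4 at chr12:84038129-84038428 and Acot3 at chr12:84051894-84052193. Capitals mark the PPAR half-site AGGTCA on either strand (TGACCT as printed). The windows of Acot2, Acot1 and Acot3 lie around the start of the gene as annotated, whereas that of Acot4 lies around a start site inside the gene, whose first annotated base is at position 84037254.
Acot2: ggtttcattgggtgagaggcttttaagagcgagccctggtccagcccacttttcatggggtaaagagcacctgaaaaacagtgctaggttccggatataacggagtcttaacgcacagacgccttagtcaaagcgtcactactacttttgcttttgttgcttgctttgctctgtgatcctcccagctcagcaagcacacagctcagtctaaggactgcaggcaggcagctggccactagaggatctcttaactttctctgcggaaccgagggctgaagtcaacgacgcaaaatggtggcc
Acot1: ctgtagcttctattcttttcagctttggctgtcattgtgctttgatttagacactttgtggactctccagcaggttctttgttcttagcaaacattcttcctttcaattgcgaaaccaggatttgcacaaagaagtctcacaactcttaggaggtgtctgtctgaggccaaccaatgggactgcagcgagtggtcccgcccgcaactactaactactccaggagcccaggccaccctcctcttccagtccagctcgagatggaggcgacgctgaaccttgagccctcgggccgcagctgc
Acot4: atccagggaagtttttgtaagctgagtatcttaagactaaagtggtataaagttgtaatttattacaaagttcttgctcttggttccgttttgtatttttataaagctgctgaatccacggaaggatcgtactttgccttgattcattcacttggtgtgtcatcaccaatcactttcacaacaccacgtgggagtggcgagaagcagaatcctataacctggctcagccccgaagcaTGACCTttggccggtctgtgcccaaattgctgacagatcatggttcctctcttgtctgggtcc
Acot3: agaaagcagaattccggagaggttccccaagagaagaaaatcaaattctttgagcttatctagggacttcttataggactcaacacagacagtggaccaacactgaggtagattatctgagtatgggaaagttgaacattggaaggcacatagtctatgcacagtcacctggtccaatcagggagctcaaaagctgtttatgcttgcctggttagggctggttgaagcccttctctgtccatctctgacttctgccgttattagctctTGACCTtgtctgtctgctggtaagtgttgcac

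The half-site was found once in the windows of Acot3 and Acot4 and not in those of Acot1 and Acot2. It is common: 16.3% of the 32851 promoter windows of this length hold it, while the full repeat, the half-site written 2 times with any 1 base between, occurs in 0.0396%. Of the 30 named genes with the largest differences, 23 had a window, 5 of these held the half-site (Cyp2b9, Acot3, Cyp2b23, Cyp2a4 and C8b) and 0 held the full repeat. Of all 27025 genes with a window, 18.1% held the half-site in one. A match describes these letters in this window and says nothing of binding.

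Acot2 had a normalised log2 intensity of 8.11, 8.89 and 9.79 (lowest, median and highest) in fenofibrate livers, against 4.53, 5.05 and 6.16 in bezafibrate livers. The difference was 3.79 ± 0.21, or 13.8-fold (adjusted p = 1.33e-11), and the groups were well separated. A dimmer second probe of Acot2 averaged 4.68 and 4.61 and differed by 0.08 (adjusted p = 0.514), so the probes of this gene disagree. Acot3 had 11.61, 12.20 and 12.51 in fenofibrate livers, against 7.34, 9.07 and 10.40 in bezafibrate livers, a difference of 3.20 ± 0.29 or 9.21-fold (adjusted p = 2.94e-08). The bezafibrate livers spread over about 3 log2 units, whereas the fenofibrate livers lay within 1. Acot1 averaged 14.05 ± 0.22 and 11.52 ± 0.55 and differed by 2.54 ± 0.17 (adjusted p = 4.61e-10), and Acot4 by 1.87 ± 0.18 (adjusted p = 6.88e-08). These genes are close copies of each other, and cross-hybridisation of their probes was not tested. Relative to saline, Acot1 was higher by 3.70 under fenofibrate and by 1.16 under bezafibrate, and Acot3 by 5.06 and 1.86. The adjusted p values of these bezafibrate differences were 7.78e-07 and 1.72e-05 without the pair, and 0.515 and 0.374 with all 37 arrays.

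Peroxisomal β-oxidation shortens very long and branched fatty acids. Of 28 listed genes, 24 were tested, 18 were higher under fenofibrate, 0 were lower and 6 were not called. The median log2 difference was 0.79, beside -0.02 over all genes, and 15 genes did not overlap between the groups, beside 5.56% of all genes. Ehhadh, the bifunctional enzyme of the pathway and a textbook PPARα target, had 12.94, 13.41 and 13.87 in fenofibrate livers, against 10.37, 10.94 and 12.65 in bezafibrate livers, and differed by 2.04 ± 0.23 (adjusted p = 7.26e-07). Its bezafibrate livers in turn all lay above the saline livers, which ranged over 8.26 to 10.24. Bezafibrate minus saline was 2.36 (adjusted p = 6.36e-09; 0.0564 with all 37 arrays) and fenofibrate minus saline was 4.40. Pex11a, which takes part in peroxisome division, was higher by 1.89 ± 0.16 under fenofibrate (adjusted p = 1.13e-08), as it was at each of its 4 probes. Its levels were 11.94, 12.34 and 12.87 in fenofibrate livers and 9.77, 10.60 and 11.32 in bezafibrate livers, the second set near the saline mean of 10.31. Crat, which moves acetyl and short acyl groups onto carnitine, was 4.96-fold higher (adjusted p = 2.53e-08). Abcd2, a peroxisomal importer of fatty acyl-CoA, was higher by 1.21 ± 0.22, with some overlap between the groups (adjusted p = 0.000264). Acaa1b, a peroxisomal thiolase, was bright in every group and differed by 0.40 ± 0.07, with means of 14.74 ± 0.08 in fenofibrate and 14.34 ± 0.17 in bezafibrate livers, beside 13.75 to 14.31 in saline livers (adjusted p = 0.000149). Against saline, 17 genes of this list were higher under fenofibrate and 6 under bezafibrate, and 16 and 0 with all 37 arrays.

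Genes of mitochondrial β-oxidation were also higher under fenofibrate where called. Of 25 listed genes 21 were tested, 17 were higher and 0 lower under fenofibrate, and the median difference was 0.76. Over all genes 12.9% were higher and 13.7% lower. Carnitine palmitoyltransferases hand long-chain acyl groups across the mitochondrial membranes, and Cpt1b is the form known from muscle. It had 7.74, 8.75 and 9.38 in fenofibrate livers, against 4.86, 5.41 and 6.52 in bezafibrate livers, and differed by 3.29 ± 0.21 (adjusted p = 1.87e-10). Its second, dimmer probe differed by 1.86. The groups did not overlap, and saline livers averaged 5.07, near the bezafibrate level. Cpt2, the inner membrane enzyme, was higher by 0.93 ± 0.08 (adjusted p = 8.03e-09), and Slc25a20, the carnitine and acylcarnitine carrier, by 1.20 ± 0.10 (adjusted p = 8.07e-09). Slc22a5, the carnitine importer of the cell membrane, was 2.88-fold higher (adjusted p = 6.53e-09).

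The enzymes of the β-oxidation cycle itself differed less in size, but with narrow spread. Acadl and Acadm, the long- and medium-chain acyl-CoA dehydrogenases, were higher by 0.88 ± 0.11 and 0.74 ± 0.07 (adjusted p = 1.56e-06 and 1.47e-07). Acadm averaged 14.03 ± 0.09 in fenofibrate livers and 13.29 ± 0.19 in bezafibrate livers (SD, n = 9 each). Hadhb, the β subunit of the trifunctional protein, was higher by 0.96 ± 0.10, while the probe of its partner Hadha differed by 0.10 (95% interval -0.11 to 0.31, adjusted p = 0.538). The Hadha probe was much dimmer, with fenofibrate and bezafibrate means of 7.18 and 7.08, beside 12.17 and 11.20 for Hadhb. 18 genes of the list were higher than saline under fenofibrate and 3 under bezafibrate, and 17 and 0 with all 37 arrays.

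**Figure D2:**
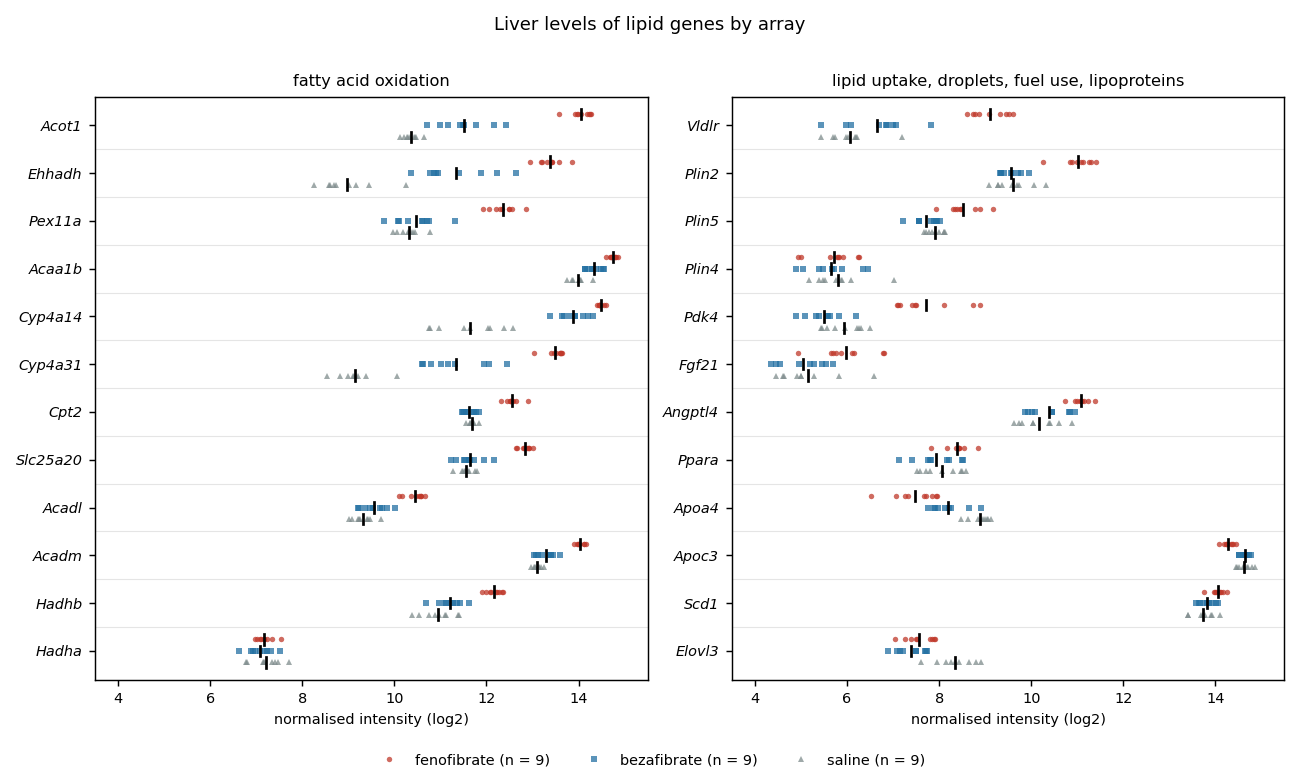
Normalised log2 intensity (x axis) in each liver array for genes of fatty acid oxidation (left) and of lipid uptake, storage, fuel use and lipoproteins (right). Points are arrays and black bars are means, with fenofibrate above bezafibrate above saline (9 arrays each, saline 4 left out). Ehhadh and Cyp4a31 step down from fenofibrate to bezafibrate to saline with means of 13.37, 11.33 and 8.97 for Ehhadh, while for Plin2 bezafibrate and saline lie together at 9.56 and 9.60.

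Microsomal ω-oxidation, in which Cyp4 enzymes hydroxylate the end of the fatty acid chain, was mixed. Of 14 listed genes 12 were tested, 6 were higher and 4 lower under fenofibrate, with a median of 0.30. With arrays centred on their medians 6 were higher and 1 lower, and with all 37 arrays in the fit 4 and 1. Cyp4a31 had 13.03, 13.59 and 13.64 in fenofibrate livers, against 10.61, 11.16 and 12.45 in bezafibrate livers, a difference of 2.17 ± 0.20 (adjusted p = 4.49e-08). The groups did not overlap, and saline livers, at 8.53 to 10.05, lay below both. Cyp4a14 differed less between the fibrates, by 0.60 ± 0.10 (adjusted p = 6.62e-05), a call lost with all 37 arrays in the fit (adjusted p = 0.211). It was higher than saline under each, by 2.85 under fenofibrate and 2.25 under bezafibrate. The bezafibrate rise of Cyp4a14 was called without the pair (adjusted p = 9.08e-12) and with all 37 arrays (0.000242). Aldh3a2, which oxidises fatty aldehydes, was 2.8-fold higher under fenofibrate (adjusted p = 6.71e-09), and Cyp4a12b was higher by 0.92 ± 0.12. In the other direction, Cyp4f14, which hydroxylates leukotrienes, fell by 1.90 with levels of 8.87, 10.16 and 10.48 in fenofibrate livers, against 11.40, 11.84 and 12.11 in bezafibrate livers (adjusted p = 3.01e-08). No fenofibrate liver reached the lowest bezafibrate value. The Cyp4 and Cyp2 families hold close copies whose probes may share targets, which was not tested.

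Of the 7 genes listed for ketone body synthesis 4 were tested and 3 were higher, among them Fgf21, which is a hormone and not an enzyme of that pathway. Fgf21, the fasting hormone made by liver, was dim, above background on 9 fenofibrate and 6 of 9 bezafibrate arrays, and differed by 0.92 ± 0.22 (adjusted p = 0.00383). The call was lost when tesaglitazar and saline livers entered the fit and among the mice numbered 1 to 20. Acat1, a mitochondrial thiolase, was higher by 0.81 ± 0.11 and Bdh1, which interconverts ketone bodies, by 0.27 ± 0.07. The call of Bdh1 was lost within each run of mice.

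Fatty acid uptake, binding and activation had 15 of 19 listed genes tested, of which 13 were higher and 0 lower under fenofibrate (median 0.67). Fabp3, the fatty acid binding protein best known from heart, had 6.89, 7.50 and 10.13 in fenofibrate livers, against 4.14, 4.20 and 4.37 in bezafibrate livers. It was above background on all 9 fenofibrate arrays and on 0 of 9 bezafibrate arrays, so it passed the filter through the fenofibrate arrays alone. On the background-corrected scale it was at least 9.29-fold higher (adjusted p = 9.63e-09). For such a probe the level of the dim group is only a bound, taken as the dimmest signal that counted as above background on each array or the probe's own signal where higher. The bound does not carry over to other scales: the log2 difference of Fabp3 was 1.82 without background correction and 1.35 on the authors' values. Slc27a1, a fatty acid transport protein, had 7.62, 8.01 and 8.55 in fenofibrate livers and 4.75, 5.25 and 5.64 in bezafibrate livers, with little spread in either group. It differed by 2.82 ± 0.13 (adjusted p = 1.43e-12), and bezafibrate livers exceeded saline by 0.62 (adjusted p = 0.000772; 0.862 with all 37 arrays). Vldlr, a receptor of triglyceride-rich lipoproteins, was 5.53-fold higher at its brightest probe and higher at all 4 of its probes (adjusted p = 4.49e-08). Lpl, which frees fatty acids from lipoproteins, averaged 12.20 ± 0.23 and 9.92 ± 0.55 and was 4.88-fold higher (adjusted p = 2.65e-09). Against saline, 13 genes of this list were higher under fenofibrate and 1 under bezafibrate, and 13 and 0 with all 37 arrays.

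Lipid droplet genes were higher under fenofibrate at 11 of 18 tested genes (21 listed) and lower at 0, with a median of 0.47. Cidea and Cidec, droplet proteins known to promote droplet fusion and growth, were dim in bezafibrate livers. Cidea had 6.19, 7.67 and 8.77 in fenofibrate livers, against 4.25, 4.64 and 4.87 in bezafibrate livers, where 5 of 9 arrays were above background, and differed by 3.09 ± 0.26 (adjusted p = 1.03e-08). Cidec was 6.65-fold higher (adjusted p = 4.45e-09) and was above background on 7 of 9 bezafibrate arrays. Neither gene overlapped between the groups. Plin2, the coat protein of hepatocyte droplets, was 2.75-fold higher, with 10.26, 11.09 and 11.40 in fenofibrate livers and 9.32, 9.57 and 9.95 in bezafibrate livers, around the saline mean of 9.60 (adjusted p = 1.19e-08). Mgll, a monoacylglycerol lipase, was higher by 1.92 ± 0.13 (adjusted p = 4.61e-10), G0s2, an inhibitor of the droplet lipase, by 1.14 ± 0.17, and Plin5 by 0.80 ± 0.14. Plin4 differed by 0.05 (95% interval -0.38 to 0.48). Of the adipocyte markers, Fabp4, Plin1 and Retn were above background on 0 arrays, and the summed level of the list, mostly Car3, was 3332 to 8751 in fenofibrate livers, against 8414 to 13710 in bezafibrate livers.

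Genes that direct the choice of fuel were among those that differed. Pdk4, the kinase that shuts off pyruvate dehydrogenase, had 7.09, 7.48 and 8.90 in fenofibrate livers, against 4.90, 5.57 and 6.20 in bezafibrate livers, and differed by 2.22 ± 0.23 (adjusted p = 1.96e-07). Most bezafibrate livers, 8 of 9, lay below the saline mean of 5.94. Angptl4, a secreted inhibitor of lipoprotein lipase, was higher by 0.70 ± 0.14, with overlap between the groups (adjusted p = 0.000589). Aqp7 and Aqp3, channels that carry glycerol, were near background under bezafibrate. On the background-corrected scale Aqp7, above background on 0 of 9 bezafibrate arrays, was at least 2.33-fold higher under fenofibrate (adjusted p = 1.4e-10). Its log2 difference ran from 0.35 to 1.65 under the alternatives run, and it passed the filter through the fenofibrate arrays alone. Aqp3, above background on 1 of 9 bezafibrate arrays, differed by 0.94 ± 0.12. Gpd2, the mitochondrial glycerol phosphate dehydrogenase, was 2.57-fold higher (adjusted p = 2.11e-07). Fbp2, the muscle form of fructose bisphosphatase, averaged 7.25 ± 0.49 in fenofibrate livers and 4.59 ± 0.40 in bezafibrate livers, where 3 of 9 arrays were above background (adjusted p = 5.93e-10). Over the 31 genes listed for glucose and glycerol, 24 were tested, 5 were higher and 6 lower, beside 26.6% of all genes called.

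The receptors themselves differed little. Ppara was higher by 0.45 ± 0.16 (adjusted p = 0.0422) and the brighter probe of Pparg fell by 0.42 (adjusted p = 0.0463), while its second probe was not called (0.0569). Either call was lost when single arrays were left out, each in 12 of 18 cases, with adjusted p up to 0.0824 for Ppara and 0.0932 for Pparg. Ppard differed by -0.14 and the coactivator Ppargc1a by 0.09 (95% interval -0.20 to 0.37), and neither was called. Of 26 tested nuclear receptor and cofactor genes (35 listed), 1 was higher and 3 were lower, beside 26.6% of all genes called.

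Genes of lipid synthesis were next. Of 21 tested genes of fatty acid synthesis (22 listed), 9 were higher and 2 lower (median 0.19). Me1, malic enzyme, which supplies NADPH, had 9.99, 10.31 and 11.04 in fenofibrate livers, against 7.32, 8.43 and 9.75 in bezafibrate livers, and was 3.75-fold higher (adjusted p = 1.48e-06). Fads2, a desaturase of polyunsaturated fatty acids, was 2.53-fold higher (adjusted p = 3.25e-08), and Acacb, which makes the malonyl-CoA that restrains Cpt1, differed by 0.90 ± 0.17. Scd1, a desaturase, differed by 0.23 ± 0.08 (adjusted p = 0.0314) and lost its call in 7 of 18 fits without a single array. Fasn, the fatty acid synthase, was dim and differed by 0.11 (95% interval -0.23 to 0.44), by -0.30 within mice 1 to 20 and by 0.52 within mice 21 to 40 (adjusted p = 0.0392). Lpin1, a phosphatidate phosphatase and coactivator, went the other way: it averaged 7.70 ± 0.54 in fenofibrate livers and 8.54 ± 0.31 in bezafibrate livers, beside 7.76 in saline livers (fenofibrate minus bezafibrate -0.85, adjusted p = 0.00134). Bezafibrate minus saline was 0.78 for Lpin1 (adjusted p = 0.0114; 0.0173 with all 37 arrays). Of 17 tested genes of cholesterol synthesis and uptake (25 listed), 1 was called, Hsd17b7, an enzyme of that pathway, higher by 0.69 ± 0.14 with its second probe not called. That count depended on the setting: 4 genes were called higher with arrays centred on their medians, 6 within mice 21 to 40 and 0 within mice 1 to 20.

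Genes of plasma lipid handling divided. Of 19 tested (23 listed), 3 were higher and 6 lower under fenofibrate, and 3 and 2 with all 37 arrays in the fit. Pltp, the phospholipid transfer protein, had 7.76, 8.08 and 8.25 in fenofibrate livers, against 5.86, 6.56 and 7.08 in bezafibrate livers, and was 2.86-fold higher without overlap (adjusted p = 3.46e-08). Angptl8, a secreted regulator of lipoprotein lipase, fell by 1.11 (adjusted p = 0.000688), and Apom, an apolipoprotein of HDL, fell by 0.89 (adjusted p = 7e-07). Apoc3, which slows the clearance of triglyceride-rich particles, fell by 0.36 with SDs near 0.1 in either group (adjusted p = 0.000129), and Apoa4 fell by 0.71 (adjusted p = 0.00498). The calls of Apoc3 and Apoa4 were lost with all 37 arrays in the fit. Apoa1, Apoa2 and Apoa5 were not called, with 95% intervals of -0.13 to 0.09, -0.05 to 0.15 and -0.29 to 0.12. For bile acids, 4 of 18 tested genes (20 listed) were higher and 4 lower, beside 12.9% and 13.7% of all genes. Abcc4, an exporter of the sinusoidal membrane, was 3.02-fold higher (adjusted p = 1.47e-07), Abcb4, the phospholipid exporter of bile, was higher by 0.55 ± 0.08, and Cyp8b1, which makes cholic acid, by 0.51 ± 0.12. Slco1a4, an importer of organic anions, had 5.47, 6.15 and 6.94 in fenofibrate livers, against 8.01, 8.46 and 9.22 in bezafibrate livers, and fell by 2.30 (adjusted p = 5.85e-09). Cyp7b1, of the alternative pathway, fell by 0.84 (adjusted p = 0.0145). The call of Cyp7b1 was lost without the detection filter and within mice 1 to 20, where that of Abcb4 was lost too. That of Cyp8b1 was lost within mice 21 to 40 (adjusted p = 0.121). Cyp7a1, the rate-limiting enzyme of bile acid synthesis, averaged 11.80 and 11.79, with a 95% interval of the difference from -0.44 to 0.44 (adjusted p = 0.992).

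Xenobiotic metabolism was split as well, with 11 of 43 tested genes higher and 15 lower (53 listed), and 9 and 6 with all 37 arrays in the fit. Over all genes 12.9% were higher and 13.7% lower in the main fit. Cyp2b23 was 6.42-fold higher with slight overlap between the groups (adjusted p = 1.1e-05), and Cyp2b10, the classical target of the receptor CAR, differed by 0.77 ± 0.27 (adjusted p = 0.0417), a call lost in 10 of 18 fits without a single array. Cyp2c54 and Ugt2b1, enzymes of drug oxidation and of glucuronidation, fell by 1.46 and 1.36 (adjusted p = 7.54e-06 and 4.39e-06). Cyp3a11, the main Cyp3a of mouse liver, fell by 0.21 (adjusted p = 0.0477) and lost its call in 13 of 18 such fits.

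Genes that differ between the sexes in mouse liver formed the extremes in both directions. Hsd3b5, a male-specific steroid reductase under growth hormone control, had 4.54, 7.61 and 8.24 in fenofibrate livers, against 10.13, 11.26 and 12.42 in bezafibrate livers, beside 11.72 to 12.94 in saline livers. The groups did not overlap, and 8 of 9 fenofibrate arrays were above background. It fell by 4.45 on the log2 scale, or 21.9-fold (adjusted p = 4.41e-08). Serpina1e, an α1-antitrypsin gene, had 8.83, 11.54 and 12.22 in fenofibrate livers, against 13.99, 14.48 and 14.67 in bezafibrate livers, and fell by 3.32 (adjusted p = 1.2e-06). Its bezafibrate livers stayed close together, and its fenofibrate livers spread over more than 3 log2 units. Mup5 and Mup21, major urinary proteins, fell by 1.54 and 1.52 (adjusted p = 4.51e-07 and 1.58e-06), again with no overlap. These belong to families of near-identical genes that the probes may not tell apart. Of 22 tested genes of the male-biased list (26 listed) 14 were lower and 2, Cyp4a12b and Cyp4a12a, were higher, with a median of -0.50. Of the 19 female-biased genes 16 had a probe, 7 were tested, and 5 of them were higher (Cyp2b9, Acot3, Cyp2a4, Abcd2 and Cyp4a14). Several of these are also known targets of PPARα. A dim gene of this list could pass the filter through the fenofibrate arrays alone.

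Cyp2a4, a female-predominant testosterone hydroxylase, showed the least stable of these differences. It had 7.47, 7.94 and 9.86 in fenofibrate livers, against 4.43, 5.04 and 10.61 in bezafibrate livers. The array bezafibrate 33 stood above every fenofibrate array, and the other bezafibrate arrays all lay under the fenofibrate ones. The difference was 2.54 ± 0.60 (adjusted p = 0.00294), and 3.15 (adjusted p = 1.85e-07) without that array. Among the mice numbered 21 to 40 it was 2.10 and not called (adjusted p = 0.196).

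**Figure D3:**
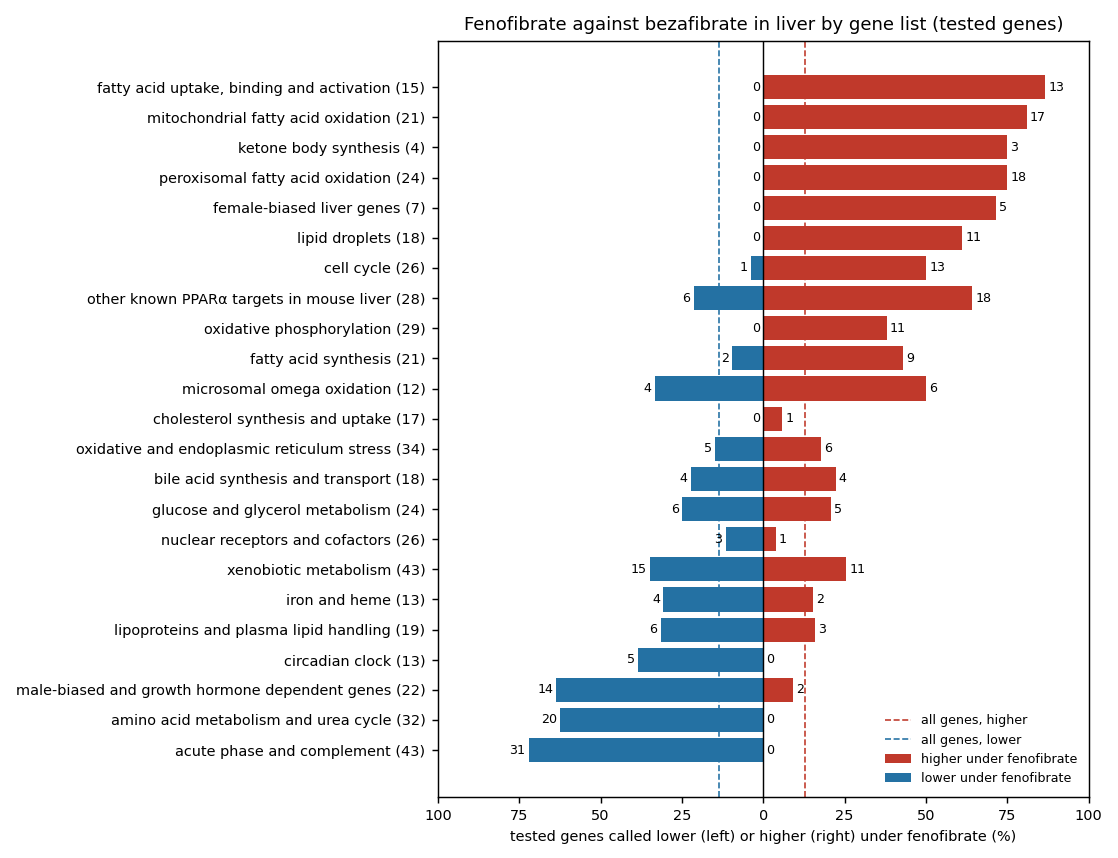
Share of the tested genes of each list that were called lower (blue, left) or higher (red, right) under fenofibrate relative to bezafibrate, in percent (x axis), with the number tested in brackets and the number called at each bar. Dashed lines give the shares over all 9681 genes, 13.7% lower and 12.9% higher. Fatty acid uptake reaches 13 of 15 higher and the acute phase and complement list 31 of 43 lower.

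Of 49 acute phase and complement genes, most of which encode plasma proteins made by the liver, 43 were tested, 31 were lower under fenofibrate, 0 were higher and 12 were not called, with a median of -0.50. 31 genes of the list were lower than saline under fenofibrate and 0 under bezafibrate, and 26 and 0 with all 37 arrays. C8b and C8a, chains of the membrane attack complex, fell by 1.65 and 1.30 (adjusted p = 2.1e-07 and 2.66e-05). C8b had 8.59, 9.78 and 10.09 in fenofibrate livers and 10.94, 11.19 and 11.93 in bezafibrate livers, so every fenofibrate liver was lower. C6, another chain of that complex, fell by 1.27, and so did Itih4, an inter-α-trypsin inhibitor chain (adjusted p = 3.08e-05 and 1.51e-08). The serum amyloids, which surge in inflammation, varied by mouse. Saa1 had 6.53, 8.17 and 9.50 in fenofibrate livers, against 8.07, 9.15 and 14.71 in bezafibrate livers, the highest being bezafibrate 13. It differed by -1.73 ± 0.64 (adjusted p = 0.0523), and without bezafibrate 13 by -1.12 (adjusted p = 0.0439). Serpina12, which encodes the adipokine vaspin, fell by 3.68 (adjusted p = 1.56e-05) but overlapped, at 4.26, 5.15 and 6.37 in fenofibrate livers and 5.59, 9.22 and 10.85 in bezafibrate livers. Serpina4-ps1, an annotated pseudogene, fell by 1.51 (adjusted p = 0.0462), a call lost in 14 of 18 fits without a single array.

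Amino acid metabolism and the urea cycle were lower at 20 of 32 tested genes (38 listed) and higher at 0, with a median of -0.34. Cbs, which joins homocysteine to serine, fell by 1.11 with levels of 8.76, 9.00 and 9.20 in fenofibrate livers, against 9.77, 10.07 and 10.62 in bezafibrate livers (adjusted p = 1.22e-07). The urea cycle enzymes Asl, Cps1 and Ass1 fell by 0.96, 0.90 and 0.84 (adjusted p = 6.04e-07, 2.56e-08 and 1.56e-06), and Agxt, which detoxifies glyoxylate, by 0.92. None of these 5 genes overlapped between the groups. The count of lower genes was 11 with arrays centred on their medians and 7 with all 37 arrays in the fit. The acute phase count was 22 and 21 under these settings. The summed level of the hepatocyte markers, given above, was also lower under fenofibrate, and its part in both lists was not tested. The markers share genes with the lists, so this likeness is in part built in. Cps1 and Ass1 stand in the amino acid list and Serpina1a in the acute phase list. Nnmt, which methylates nicotinamide, stood apart in size: it fell by 2.32 (adjusted p = 3.35e-08) at its brightest probe and at both others, with 8.75, 9.24 and 9.75 in fenofibrate livers, against 10.57, 11.51 and 12.37 in bezafibrate livers, which lay around the saline mean of 11.50.

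Further genes of the 15 most lower had varied roles. Rgs16, a regulator of G protein signalling, fell by 2.22 with wide overlap, at 6.07, 7.06 and 9.30 in fenofibrate livers and 7.65, 10.09 and 10.99 in bezafibrate livers (adjusted p = 0.0016). Enho, the gene of the peptide adropin, fell by 1.58 (adjusted p = 2.59e-06) and Sdr9c7, a short-chain dehydrogenase, by 1.70 (adjusted p = 1.22e-08). Sdr9c7 stepped through the groups, with means of 5.06 ± 0.23 in fenofibrate, 6.76 ± 0.42 in bezafibrate and 7.80 in saline livers. Bezafibrate minus saline was -1.04 (adjusted p = 8.17e-06; 0.396 with all 37 arrays). Mmd2, a membrane protein, fell by 1.84, with 7 of 9 fenofibrate arrays above background. Hectd2os, an antisense RNA, fell by 1.52. Among the higher genes, Amn, which anchors the cubilin receptor, was above background on 3 of 9 bezafibrate arrays and differed by 2.77 ± 0.18 (adjusted p = 2.07e-10), and Lamb3, a laminin chain, was 5.89-fold higher (adjusted p = 4.34e-07).

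Cell cycle genes were higher at 13 of 26 tested (37 listed) and lower at 1, Tk1, with a median of 0.37. Mcm4, Mcm5 and Mcm6, subunits of the helicase that opens DNA for replication, were higher by 1.14 ± 0.16, 1.02 ± 0.19 and 1.02 ± 0.19 (adjusted p = 1.22e-05, 0.000378 and 0.000416). Mcm4 had 7.76, 8.48 and 8.98 in fenofibrate livers and 6.84, 7.37 and 7.86 in bezafibrate livers, with some overlap, and bezafibrate livers lay at the saline mean of 7.38. Ccnd1, cyclin D1, differed by 0.22 (95% interval -0.05 to 0.50). Against saline, 19 genes of the list were higher under fenofibrate and 0 under bezafibrate, and 12 and 0 with all 37 arrays. Oxidative phosphorylation genes were higher at 11 of 29 tested (36 listed), in small steps: Cycs, cytochrome c, by 0.56 ± 0.07 at its brightest probe, with 1 of 3 probes not called, and Cox6a1, a subunit of complex IV, by 0.37 ± 0.06. That count was 3 with arrays centred on their medians.

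Some clock output genes were lower under fenofibrate than under bezafibrate. Of 13 tested circadian genes (22 listed) 5 were lower under fenofibrate and 0 higher. Against saline, 5 were higher and 3 lower under fenofibrate, and 7 higher and 2 lower under bezafibrate, beside 3.73% of all genes called in bezafibrate minus saline. With all 37 arrays these counts were 6 and 3 under fenofibrate and 7 and 1 under bezafibrate. Dbp, an output factor of the clock, had 11.39, 11.86 and 12.14 in fenofibrate livers, against 11.99, 12.22 and 12.37 in bezafibrate livers, beside a saline mean of 11.50. Fenofibrate minus bezafibrate was -0.35 ± 0.09 (adjusted p = 0.00424) and bezafibrate minus saline was 0.69 (adjusted p = 0.00481; 0.00366 with all 37 arrays). The call of Dbp between the fibrates was lost with all 37 arrays (adjusted p = 0.139), with 35, with arrays centred on their medians and within each run of mice. Nr1d1, a repressor of the clock, fell by 0.65 (adjusted p = 0.00395), and Avpr1a, a vasopressin receptor, by 0.91. Tef, a relative of Dbp, was lower than under bezafibrate by 0.36 (adjusted p = 0.033), a call lost in 6 of 18 fits without a single array. The call of Tef was also lost with all 37 arrays, with 35, with median centring, without the detection filter and within mice 21 to 40. Its adjusted p reached 0.507 under the alternatives run. The count of lower circadian genes was 2 with arrays centred on their medians and 2 with all 37 arrays. The hour of dissection is not given in the labels.

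A list of 35 further genes known as PPARα targets in mouse liver had 28 tested, of which 18 were higher, Ly6d and Krt23 among them, and 6 lower (median 0.53). Some of its members stand in other lists as well. Of 34 tested stress genes (39 listed) 6 were higher and 5 lower, beside 26.6% of all genes called. Chac1, a target of the unfolded protein response, fell by 0.93, Xbp1, a factor of that response, fell by 0.58, and Gadd45b, a DNA damage response gene, was higher by 0.64 ± 0.17. Both Chac1 and Gadd45b lost their call within mice 21 to 40, and Gadd45b also with all 37 arrays, with adjusted p up to 0.144 and 0.229. Of 13 tested genes of iron and heme (17 listed) 2 were higher and 4 lower, beside 12.9% and 13.7% of all genes. Hamp, the iron hormone hepcidin, fell by 0.77 (adjusted p = 8.12e-05), while the probe of its near copy Hamp2 was higher by 0.96 ± 0.26 (adjusted p = 0.00796). Alas2, the erythroid enzyme of heme synthesis, fell by 0.82 (adjusted p = 1.69e-06), beside summed erythroid marker levels of 16180 to 23030 in fenofibrate and 10760 to 28240 in bezafibrate livers. Elovl3, a fatty acid elongase, was not called between the fibrates (0.19, 95% interval -0.09 to 0.46) and was lower than saline by 0.78 under fenofibrate and 0.96 under bezafibrate in the same fit.

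Some probes were above background under one drug only. Of 17635 probes tested, 16 were above background on all 9 fenofibrate and 0 of 9 bezafibrate arrays, and 1, of Adgrf1, the other way. Such probes passed the filter through the arrays of 1 drug alone, so a difference was built into their choice. Bounds on their folds are given on the background-corrected scale. The 16 include Fabp3, Cox6b2 (at least 4.68-fold higher), a cytochrome oxidase subunit known from testis, 2 probes each of Sdcbp2, Slc39a5, a zinc transporter, and Aqp7, and single probes of Pnliprp1 (at least 3.91-fold) and Ctse (at least 3.15-fold). The Sdcbp2 probes were at least 4.6-fold and 1.82-fold higher. These were named after their values were seen. Pnliprp1 is a lipase relative known from pancreas. The summed level of the pancreatic exocrine markers was 4141 to 5514 in fenofibrate livers and 5456 to 7246 in bezafibrate livers, so that the fenofibrate range began and ended lower.

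The fibrates did not differ detectably in the brain regions. In prefrontal cortex (9 fenofibrate and 10 bezafibrate arrays), 0 of 21452 probes passed limma's test and 2394 had an unadjusted p under 0.05, the smallest adjusted p being 0.106. In amygdala (9 and 9 arrays), 0 of 21925 probes passed, and 2143 had an unadjusted p under 0.05. Both counts are above a share of 0.05 of the probes tested, the share that no difference would give on average. The 0 calls therefore do not show that the drugs were alike there. In these regions 94.7% and 91.3% of the 95% intervals stayed inside 0.5 on either side of 0. With all 4 treatments in the fit of prefrontal cortex, 23 probes were called. The liver difference minus the mean of the brain differences was called at 3537 of 24439 probes (14.5%), 1895 higher and 1642 lower in liver. Of the 30 named genes, 15 were tested in neither brain region, and for these the contrast repeats the liver value. Fabp3, above background on all brain arrays, averaged 10.51 ± 0.27 under fenofibrate and 10.62 ± 0.09 under bezafibrate in prefrontal cortex, a difference of -0.11, beside 3.56 in liver. Slc25a20, likewise measured in both regions, differed by -0.05 in prefrontal cortex and -0.12 in amygdala, beside 1.20 in liver. Cyp2b9 and Hsd3b5 are among the 15 genes tested in neither region, with 0 brain arrays of either drug above background.

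**Figure D4:**
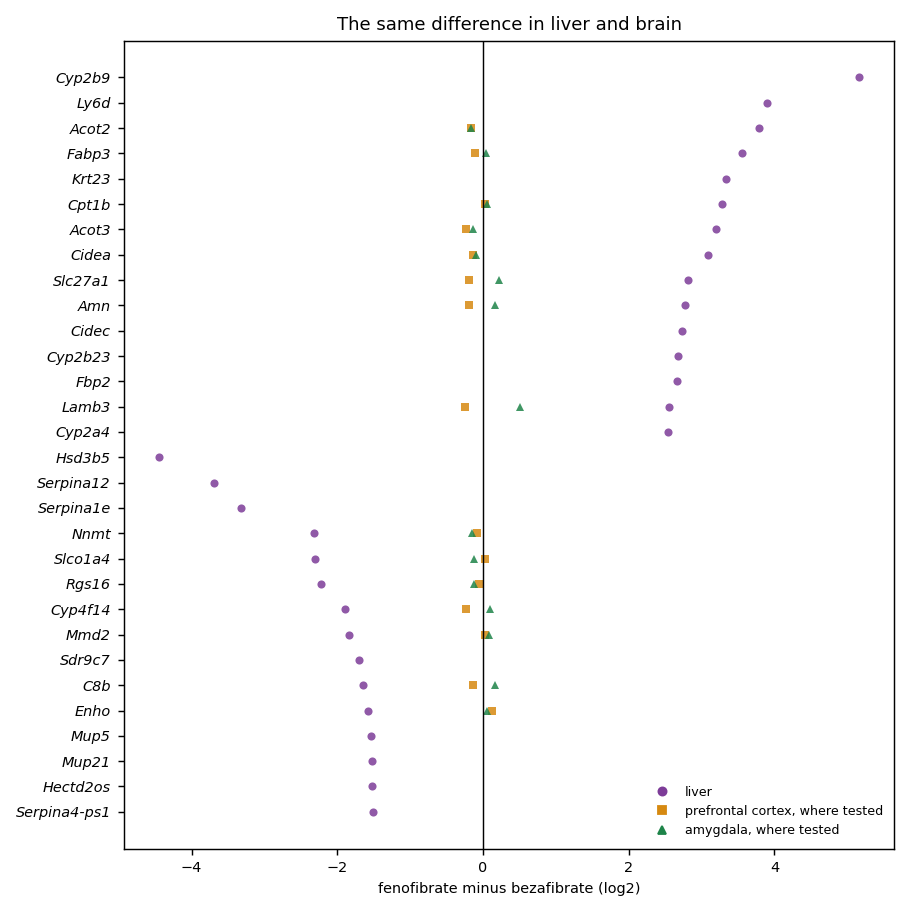
Fenofibrate minus bezafibrate on the log2 scale (x axis) for the 30 named genes in liver (circles), prefrontal cortex (squares) and amygdala (triangles). Brain values are drawn only where the probe was tested in that tissue. Liver values run from -4.45 for Hsd3b5 to 5.17 for Cyp2b9, and the brain values stay close to 0, with 0.51 for Lamb3 in amygdala the furthest.

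The liver difference was seen in each run of mouse numbers. Among mice 1 to 20 (5 fenofibrate and 4 bezafibrate arrays) 2081 probes were called (11.8%) and among mice 21 to 40 (4 and 5 arrays) 2682 (15.2%). 1192 probes were called in both, in the same direction, which is 57.3% of the calls of mice 1 to 20 and 44.4% of those of mice 21 to 40, and 1 was called in opposite directions. The difference between the runs was itself called at 0 probes, with 1843 at an unadjusted p under 0.05 and a smallest adjusted p of 0.102. That count is above a share of 0.05 of the probes tested, so the 0 calls do not show that the runs were alike. Cyp2b9 differed by 4.56 and 5.79 in the runs, Acot2 by 3.36 and 4.24 and Hsd3b5 by -3.65 and -5.36. Slc27a1 and Plin2 gave nearly equal values in both runs, 2.87 and 2.73 for Slc27a1 and 1.47 and 1.47 for Plin2. Serpina4-ps1 differed by -0.74 in mice 1 to 20 (adjusted p = 0.601) and by -2.23 in mice 21 to 40 (adjusted p = 0.0211).

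**Figure D5:**
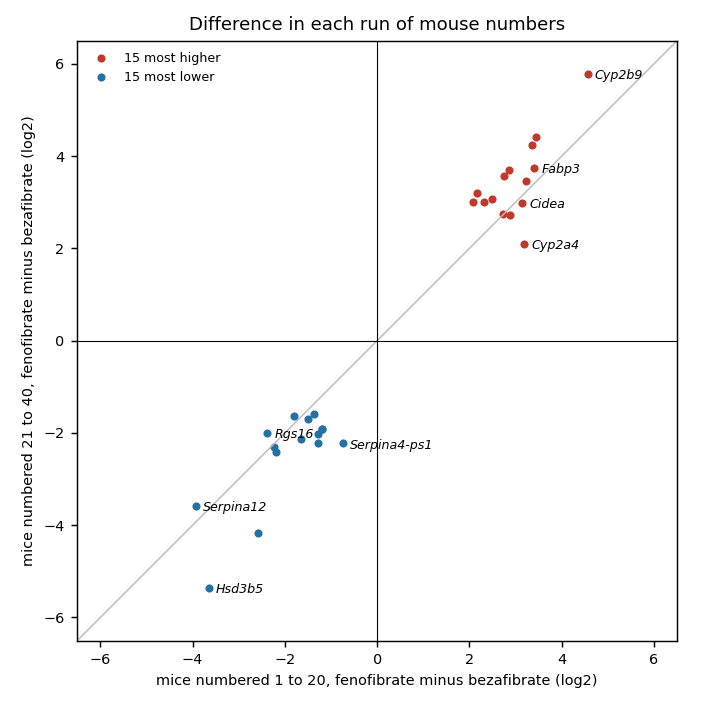
Fenofibrate minus bezafibrate on the log2 scale in mice numbered 1 to 20 (x axis) and 21 to 40 (y axis) for the 15 most higher (red) and 15 most lower (blue) named genes. The grey line marks equal values. All 30 genes keep their direction, with Hsd3b5 at -3.65 and -5.36 and Cyp2b9 at 4.56 and 5.79.

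Single mice differed in how far they stood from the other drug. Over the 15 most higher genes, fenofibrate 37 was the highest fenofibrate array in 10, and over the 15 most lower genes it was the lowest in 7. Fenofibrate 16 was the lowest fenofibrate array in 7 of the 15 higher genes and the highest in 6 of the 15 lower ones. The median level over the 15 higher genes was 9.40 on fenofibrate 37 and 7.74 on fenofibrate 16, against 4.62 to 5.60 on the bezafibrate arrays. Bezafibrate 12 and bezafibrate 13 were the highest of their group in 6 and 5 of the higher genes. Even the lowest of the fenofibrate medians lay above the highest bezafibrate median, where these genes had been chosen for that difference.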

How the data were processed

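RNA was amplified and labelled with biotin and hybridised to Illumina bead arrays, per the labels. The deposited table holds 45281 probes as linear intensity, not normalised and without background subtraction, per the file headers and values, with a deposited detection p-value beside each. A second deposited table holds the authors' processed log2 values, which rank probes as the array's own intensity (rank correlation 1) with column medians of 7.07. The submitters' processing notes name lumi, with version and settings not given in the sources used here. A further 8 columns of arrays could be matched to no sample and were left out.

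For the 37 liver arrays, limma's neqc method was applied: background was estimated through the detection p-values, an offset of 16 added (which shrinks differences of dim probes), arrays quantile normalised and log2 taken (R 4.3.3, limma 3.58.1, figures with matplotlib 3.10.9). Probes with detection p under 0.05 on at least 9 of the 18 fibrate arrays were tested by lmFit and eBayes on those 18 arrays, two-sided, with Benjamini-Hochberg adjustment over all tested probes. Fits against saline used all liver treatments. Brain regions were normalised apart. Levels carry the SD and log2 differences limma's SE. The number of arrays limits the precision.

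Of all probes, 34885 carry 1 gene in GEO's platform annotation, 18 several and 10378 none. By gene ID 34807 symbols were matched to RefSeq (GRCm38.p6), and the RefSeq symbol was used for these. A gene is given by its brightest probe over the 18 arrays. The named genes are the 15 most higher and 15 most lower called genes above background on all 9 arrays of the higher group, up to 4 called genes per list and 59 fixed genes. Of the fixed genes Cpt1a, Cd36, Fabp1, Fabp4 and Vnn1 did not pass the filter, and Cyp4a10, Acsl1, Mup1 and Gdf15 have no named probe here. Some of the fixed genes are not reported here. The groups, lists and rules were chosen with earlier results of these data known. The scripts were tested on simulated data.

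Whether equal numbers pair the tissues of a mouse was checked by correlating deviations from the group means. The median was 0.0834 over 18 pairs of liver and prefrontal cortex, 0.0439 over 16 pairs of liver and amygdala and 0.0693 over 17 pairs of the brain regions, so the block by mouse number was kept as an alternative.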

Additional observations from a re-analysis of the deposited data

Results flagged for a closer look

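7 of 60 groups of 9 arrays, taken over the 30 named genes, held an array far from the rest by Dixon's criterion, where chance alone would mark about 1 in 20. Fenofibrate 37 had a normalised log2 intensity of 10.13 for Fabp3, above 6.89 to 8.26 on the other fenofibrate arrays. The same array had 8.59 for C8b, below 9.40 to 10.09. Fenofibrate 17 had 7.74 for Serpina4-ps1, above 4.71 to 5.96.

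Among the bezafibrate arrays, bezafibrate 33 had 10.61 for Cyp2a4, above 4.43 to 6.80 on the others, and 9.22 for Slco1a4, above 8.01 to 8.58. Bezafibrate 13 had 5.57 for Fbp2, above 4.26 to 4.80. Bezafibrate 12 had 4.37 for Fabp3, above 4.14 to 4.23, all of these values being below background.

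The fenofibrate minus bezafibrate difference itself differed between liver and brain at 3537 of 24439 probes by the interaction contrast, 1895 of them higher and 1642 lower in liver. In the brain regions alone 0 probes were called by limma, with 2394 in prefrontal cortex and 2143 in amygdala at an unadjusted p under 0.05. In each region that is above a share of 0.05 of the probes tested.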

How the results depend on the processing

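No named gene called between the fibrates changed sign under the alternatives run, while some genes that were not called did: Fasn ran from -0.30 to 0.52, Cyp7a1 from -0.34 to 0.28, Plin4 from -0.04 to 0.18 and Apoa5 from -0.17 to 0.03. The split of called probes, 2090 higher and 2167 lower, was 2137 and 741 with median centring. Of 4257 probes called, leaving out each array in turn gave 3760 (without fenofibrate 37) to 4273 (without bezafibrate 13), with 1.56% to 1.83% of tested probes at least 2-fold apart in place of 1.65%. Within mice 1 to 20 the count was 2081 (1448 to 2023 without single arrays, 2537 with median centring) and within mice 21 to 40 it was 2682 (1888 to 2435 without single arrays, 1610 with median centring, so the order of the runs turned). That share was 0.885% without background correction and 0.686% with the authors' processed values, where dim probes differ less. Median centring gave 2878 calls, all 37 liver arrays as labelled 3125 and the authors' values 4305. Prefrontal cortex gave 23 calls with all 4 treatments in the fit, against 0, and the cause was not tested. Of the 30 named genes, bezafibrate minus saline was called at 7 without saline 4 and tesaglitazar 6, and at 0 as labelled. With a replicate block by mouse number, which the pairing check did not call for, the liver against brain contrast was called at 3698 probes in place of 3537 (consensus correlation 0.0347), at 2976 with median centring and at 3788 with the tissues normalised together. Within liver no paired analysis was possible because the fibrate groups share no mouse number. Of the named genes, 9 lost their call without single arrays: Ppara, Scd1, Cyp3a11, Tef, Serpina4-ps1, Pparg, Cyp2b10, Slc4a1 and Atp5a1, with adjusted p up to 0.0956. More were lost elsewhere: 19 with all 37 arrays, 12 with median centring, 25 within mice 1 to 20 and 22 within mice 21 to 40. In the last setting 1 gene gained a call. Apoa4, Apoc3 and Cyp4a14 were lost with all 37 arrays. Abcb4, Cyp7b1, Hamp2, Nr1d1 and Xbp1 were lost within mice 1 to 20, and Abcd2, Cyp8b1 and Lpin1 within mice 21 to 40. Saa1 gained a call without single arrays, 6 in all. Dose, compound and order along the mouse numbers cannot be told apart here.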
